A study of Mus musculus with 12 samples.

Results

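Myc and 41 genes of ribosome biogenesis and its growth-linked metabolism were followed through 4 groups of B16F10 cells, an established mouse melanoma line. The 42 genes were taken by name, with earlier results of these data known. All 42 had a row among the 54752 genes of the count table and enough reads to be tested among 18434. Each group had 3 libraries. The first group was labelled as knocked out for Ep300, which encodes p300, and the second for Crebbp, which encodes CBP; the 2 proteins are related coactivators of transcription that acetylate histones. The third group was labelled as knocked out for both genes and is called double knockout, and the control group was labelled wild type. All groups were of the same line in the same serum-containing medium, with no further treatment given in the labels. The labels do not say how the genes were disrupted, whether a knockout was a clone or a pool, or whether the libraries of a group came from separate cultures. P-values here cover only the spread among these 12 libraries, and that spread may be purely technical.

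MYC is a transcription factor that, paired with MAX, binds E-box sequences and drives cell growth. Making ribosomes is among its best known programmes. RNA polymerase I transcribes ribosomal DNA in the nucleolus, small nucleolar ribonucleoproteins (snoRNPs) guide the modification of the transcript, the small subunit processome and later 40S factors shape the small subunit, and a separate set of proteins assembles the 60S subunit. Ornithine decarboxylase and spermidine synthase make polyamines, and CAD starts pyrimidine synthesis, which growing cells need alongside ribosomes. In melanoma MYC is known as a growth-promoting oncogene.

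Libraries held 64257251 to 85604243 counts. Transcripts of the targeted genes did not follow every label. Ep300 averaged 85.1 ± 8.80 CPM in Ep300 knockout, 104 ± 12.4 in Crebbp knockout, 148 ± 11.1 in double knockout and 94.4 ± 7.72 in control (SD, n = 3). Its log2 change was -0.15 ± 0.10 (SE) in Ep300 knockout and 0.65 in double knockout (adjusted p = 0.376 and 7.33e-05). Crebbp fell by 0.91 ± 0.12 on the log2 scale in Crebbp knockout (adjusted p = 0.000527), and its log2 change was -0.02 ± 0.11 in double knockout (adjusted p = 0.922). Counts per gene do not show which exons were read, so they check the labels only in part, and the group names below are those of the labels. All 7 of 7 melanocyte markers were detected; they summed to 14299 to 15024 CPM in Ep300 knockout, 18351 to 19164 in Crebbp knockout, 6526 to 6694 in double knockout and 19448 to 21397 in control. Of the immune markers, 5 of 6 stayed under 0.1 CPM in every library, as did 3 of 6 fibroblast markers (Dcn, Lum and Thy1), and every endothelium and epithelium marker stayed under 1 CPM. The remaining immune marker, Cd68, which cells other than macrophages can also express, averaged 3.47 ± 0.300 CPM in Ep300 knockout, 1.67 ± 0.193 in Crebbp knockout, 6.18 ± 0.635 in double knockout and 1.87 ± 0.259 in control (SD, n = 3), and it rose by 0.90 in Ep300 knockout and by 1.73 in double knockout on the log2 scale (adjusted p = 0.000225 and 5.48e-08). The 6 fibroblast markers summed to 17.8 to 23.8 CPM in Ep300 knockout, 9.80 to 12.4 in Crebbp knockout, 14.5 to 16.1 in double knockout and 7.38 to 9.36 in control. Histone genes without poly(A) tails summed to 1961 to 2229 CPM in Ep300 knockout and 1890 to 2395 in Crebbp knockout. They summed to 1347 to 1538 CPM in double knockout and 1766 to 2173 in control. The part of these shifts in the changes below was not tested.

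The 42 genes together took 0.657% to 0.721% of all counts in the 12 libraries. Set on a scale of CPM per kilobase of exon, their control levels spanned from Npm1, which encodes the abundant nucleolar chaperone nucleophosmin, at 933 ± 88.6 (SD, n = 3), down to Rrp12, a factor of 40S maturation, at 4.86 ± 0.482. Npm1 stood at 566 ± 27.6 in double knockout and Rrp12 at 6.51 ± 0.0878. Next to Npm1 in control came Nop10 at 178 ± 18.7, Nop56 at 128, Nhp2 at 111 and Odc1 at 102. The SD ranges of Nop56, Nhp2 and Odc1 overlapped, and those of Npm1 and Nop10 stood clear of the next gene in the order. Myc itself ranked 22 of the 42, at 12.2 ± 0.122 in double knockout and 19.2 ± 1.51 in control. The median of the 42 genes in control was 20.2, against 2.54 for all tested genes and 4.45 for tested coding genes.

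**Figure D1:**
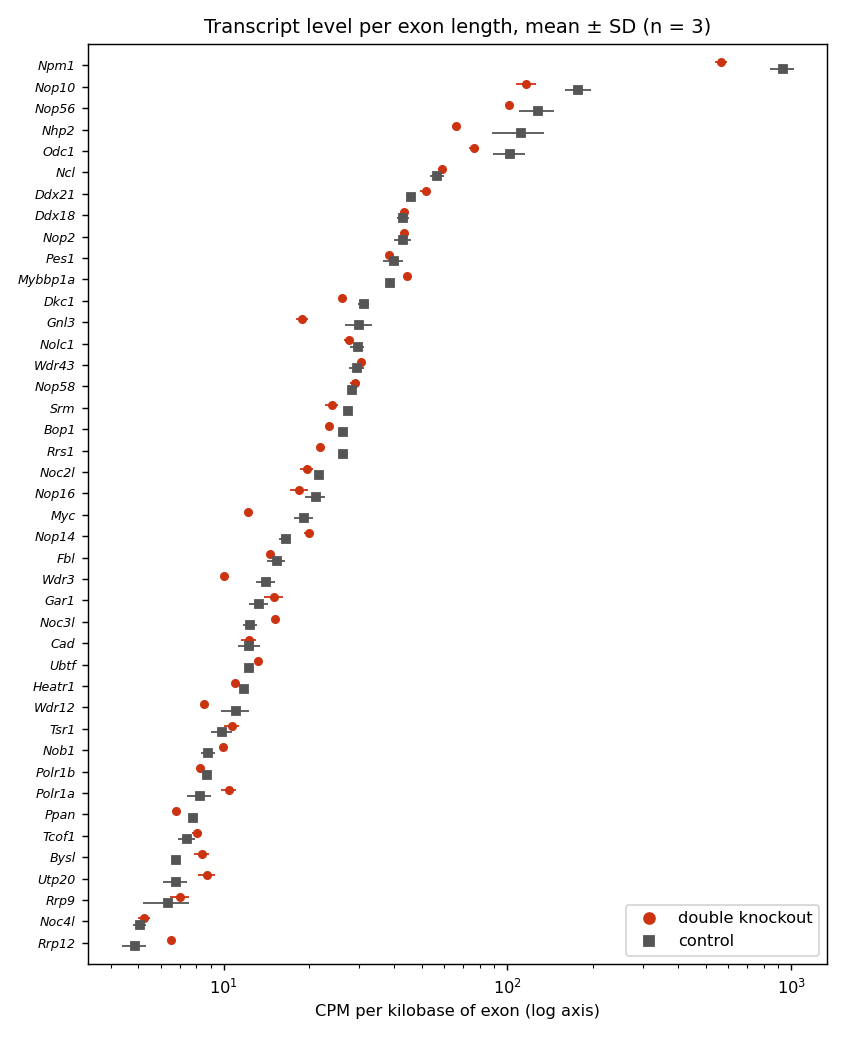
Level of each of the 42 genes per exon length (CPM per kilobase of exon, log axis) in double knockout (red circles) and control (grey squares), mean and SD of 3 libraries, ordered by the control level. Npm1, at 933 in control, stands well above the rest, and the genes with the clearest gaps between the groups include Npm1, Nop10, Nhp2, Gnl3, Myc and Wdr3.

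Promoter sequences from RefSeq (GRCm38.p6, 250 bases before to 50 after the transcript start) were held for 34 of the 42 genes, in 42 windows. They are not shown for Bop1, Fbl, Myc, Npm1, Rrp12, Rrs1, Srm and Tcof1. The E-box CACGTG, which reads the same on both strands and is the site MYC and MAX are known to prefer, was present in 6 windows (14.3%), against 7.15% of 32851 windows of the same length. Those 6 belonged to Mybbp1a, Nop2, Pes1, Tsr1, Utp20 and Wdr43. The core of the cAMP response element, TGACG or CGTCA on the other strand, where the CBP partner CREB is known to bind, was present in 17 windows (40.5%), against 20.8% of all. TATAAA, searched on both strands, was present in 3 windows (7.14%), against 13.6%. No E-box overlapped a TGACG match. Some genes had several windows. Counted per gene, the shares of the 34 were 17.6% for the E-box, 50% for TGACG and 8.82% for TATAAA. Of all 27025 genes with windows they were 8.09%, 23% and 15.7%. These include genes not tested here, and no set of matched GC content or level was compared.

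Of the 6 genes with an E-box, Utp20 and Mybbp1a were called higher in double knockout, and Nop2, Pes1, Tsr1 and Wdr43 were not called. Of all tested genes 24.7% were called higher and 24.6% lower, and 6 genes are too few to set a share beside these. Utp20 was not called without double knockout replicate 2 or control replicate 2. The rise of Mybbp1a came to 0.04 with offsets for length and GC content. In Utp20, Mybbp1a, Pes1, Tsr1 and Wdr43 the E-box lies just after the start. Its part in the changes was not tested. Bysl, Nop14, Noc3l, Nob1 and Polr1a were called higher with no E-box in their windows. The windows of 5 genes are shown as examples of windows with and without it: Utp20, Mybbp1a and Nop2 hold it, and Wdr3 and Nhp2, both called lower, do not. Capitals mark CACGTG and TGACG or CGTCA, and each sequence runs 5′ to 3′ along the gene. Utp20 lies at chr10:88826765-88827064 on the minus strand, Mybbp1a at chr11:72441077-72441376 on the plus strand, Nop2 at chr6:125131633-125131932 on the plus strand, Wdr3 at chr3:100162358-100162657 on the minus strand and Nhp2 at chr11:51619523-51619822 on the plus strand.
Utp20: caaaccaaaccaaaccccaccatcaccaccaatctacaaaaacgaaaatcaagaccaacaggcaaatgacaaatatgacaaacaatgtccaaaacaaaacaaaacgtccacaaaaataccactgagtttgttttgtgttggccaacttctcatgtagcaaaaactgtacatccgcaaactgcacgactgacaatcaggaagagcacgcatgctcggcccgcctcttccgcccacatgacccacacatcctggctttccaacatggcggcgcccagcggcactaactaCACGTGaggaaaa
Mybbp1a: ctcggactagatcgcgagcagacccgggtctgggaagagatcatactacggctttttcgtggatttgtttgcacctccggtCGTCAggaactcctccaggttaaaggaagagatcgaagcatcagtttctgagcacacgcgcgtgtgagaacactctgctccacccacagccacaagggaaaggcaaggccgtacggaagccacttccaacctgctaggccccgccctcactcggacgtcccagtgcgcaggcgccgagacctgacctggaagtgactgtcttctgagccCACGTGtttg
Nop2: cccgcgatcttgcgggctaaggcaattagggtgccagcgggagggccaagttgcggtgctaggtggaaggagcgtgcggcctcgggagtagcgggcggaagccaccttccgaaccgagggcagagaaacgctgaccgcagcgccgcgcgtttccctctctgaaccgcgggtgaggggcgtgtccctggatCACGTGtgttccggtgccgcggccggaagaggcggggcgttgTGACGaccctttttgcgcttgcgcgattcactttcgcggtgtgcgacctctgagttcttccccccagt
Wdr3: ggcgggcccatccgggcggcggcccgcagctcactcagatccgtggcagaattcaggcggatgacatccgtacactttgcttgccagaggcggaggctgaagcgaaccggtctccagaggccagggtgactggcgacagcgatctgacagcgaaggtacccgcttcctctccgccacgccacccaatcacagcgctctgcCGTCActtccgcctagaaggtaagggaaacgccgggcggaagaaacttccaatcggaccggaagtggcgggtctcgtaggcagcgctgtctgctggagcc
Nhp2: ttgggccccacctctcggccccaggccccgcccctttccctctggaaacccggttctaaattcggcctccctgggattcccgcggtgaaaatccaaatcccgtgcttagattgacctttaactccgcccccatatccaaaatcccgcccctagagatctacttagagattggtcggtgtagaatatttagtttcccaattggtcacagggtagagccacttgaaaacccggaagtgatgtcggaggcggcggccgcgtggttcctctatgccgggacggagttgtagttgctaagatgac
A match says only that these letters stand in the window, and a window without one says nothing of binding elsewhere.

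Myc was lower in Ep300 knockout and lowest in double knockout, and highest in Crebbp knockout. It had 34.1, 37.1 and 40.6 CPM in the Ep300 knockout libraries, 64.9, 62.0 and 56.2 in the Crebbp knockout libraries, 32.8, 33.5 and 33.0 in the double knockout libraries, and 53.6, 47.5 and 55.3 in the control libraries. Every library of Ep300 knockout and of double knockout lay below every control library, and every Crebbp knockout library lay above them. Myc fell by 0.49 ± 0.08 on the log2 scale in Ep300 knockout (SE, adjusted p = 0.000471, edgeR quasi-likelihood test with Benjamini-Hochberg adjustment over 18434 genes, as for all adjusted p-values here) and by 0.66 ± 0.08 in double knockout (adjusted p = 7.89e-06). In Crebbp knockout its log2 change was 0.23 ± 0.08 and was not called (adjusted p = 0.145). Since each library pools many cells, fewer cells expressing a gene and less RNA per cell cannot be told apart, here and for every gene below. Counts are also relative to a library's total, so a change in the total RNA of a cell would not be seen.

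Against Ep300 knockout, the double knockout level of Myc differed by -0.17 ± 0.08 on the log2 scale and was not called (adjusted p = 0.113). Against Crebbp knockout it fell by 0.88 ± 0.08 in double knockout (adjusted p = 4.16e-07) and by 0.71 ± 0.08 in Ep300 knockout (adjusted p = 1.48e-05). The order of the 4 groups was therefore double knockout, Ep300 knockout, control and Crebbp knockout, with the first 2 neighbours and the last 2 neighbours not separated by the test.

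**Figure D2:**
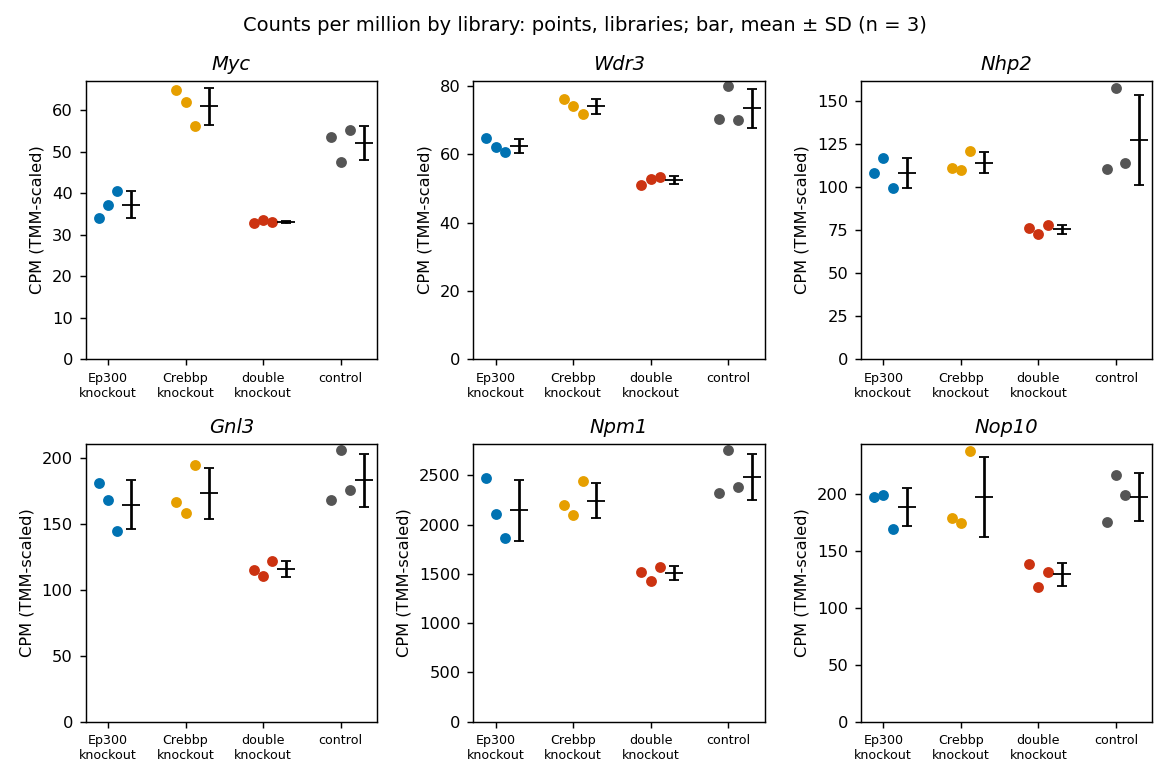
CPM of Myc and of the 5 other genes with the smallest adjusted p in double knockout against control, by library (points) with the mean and SD of 3 libraries (bars), for Ep300 knockout, Crebbp knockout, double knockout and control. In all 6 genes the 3 double knockout libraries lie below the 3 control libraries. For Wdr3, Nhp2, Gnl3, Npm1 and Nop10 control replicate 2 is the highest control library.

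In Ep300 knockout, Myc and Wdr3 fell and the other 40 genes were not called. None of the 42 was called higher, against 7.27% of all tested genes, and the 2 called lower are 4.76% of the set, against 8.83% of all tested genes (16.1% in either direction). At an unadjusted p under 0.05, 0 were higher and 3 lower, and DESeq2 and limma-voom also called 0 higher. The median absolute log2 change was 0.08, against 0.18 over all tested genes. Those genes had a lower median control level (2.54 against 20.2 CPM per kilobase), and no set of matched level was compared. Genes not called had log2 changes between -0.24 (Nhp2, adjusted p = 0.185) and 0.13 (Utp20, adjusted p = 0.504). All 3 Ep300 knockout libraries lay below all 3 control libraries in 5 of the 42 genes and above them in 0, against 14.6% and 13.8% of all tested genes.

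Wdr3 encodes a WD-repeat protein of the small subunit processome. It had 64.8, 62.2 and 60.8 CPM in the Ep300 knockout libraries, against 70.5, 80.1 and 70.0 in the control libraries. The groups did not overlap, but control replicate 2 stood well above its 2 fellows. Wdr3 fell by 0.23 ± 0.06 on the log2 scale (adjusted p = 0.0221). That call was lost when Ep300 knockout replicate 2 (adjusted p = 0.0725), Ep300 knockout replicate 3 (0.0627) or control replicate 2 (0.0863) was left out, when genes of low counts were kept (0.0604) and when only the compared groups were fitted (0.0839). The fall of Myc held in every alternative.

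In Crebbp knockout, Gar1 and Srm rose and none of the 42 genes was called lower. The 2 called higher are 4.76% of the set, against 1.52% of all tested genes, and the 0 called lower stand beside 1.61% (3.13% called in either direction). At an unadjusted p under 0.05, 10 were higher and 1 lower, and DESeq2 and limma-voom also called 0 lower. Log2 changes were above 0 for 36 of 42 genes (85.7%, against 48.9% of all tested genes), with a median of 0.09, against -0.01 over all. In 12 of the 42 the 3 Crebbp knockout libraries lay above the 3 control libraries, and in 1 (Odc1) below them, against 10.9% and 9.61% of all tested genes. The shift was small for single genes, and the largest changes not called were a log2 change of -0.27 for Odc1 (adjusted p = 0.134) and 0.23 for Bysl (adjusted p = 0.132).

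Gar1 encodes a core protein of box H/ACA snoRNPs, which pseudouridylate ribosomal RNA. It had 31.9, 32.5 and 27.6 CPM in the Crebbp knockout libraries, against 24.4, 20.9 and 23.4 in the control libraries. All Crebbp knockout libraries were higher than all control libraries, and Gar1 rose by 0.42 ± 0.09 on the log2 scale (adjusted p = 0.0189). Srm, the spermidine synthase gene, had 54.7, 54.7 and 50.9 CPM in the Crebbp knockout libraries, against 43.6, 43.7 and 44.7 in the control libraries. Again the groups did not overlap, and Srm rose by 0.28 ± 0.07 (adjusted p = 0.0449). Both calls were lost in several alternatives. Gar1 was not called without Crebbp knockout replicate 1 (adjusted p = 0.0732) or 2 (0.0905), without control replicate 2 (0.0547) or 3 (0.0638), or with only the compared groups in the fit (0.0553). Srm was not called without Crebbp knockout replicate 1 (0.14) or 2 (0.156), without any control replicate (0.119, 0.0876 and 0.13 without replicates 1, 2 and 3), without any double knockout replicate (0.0709, 0.0586 and 0.067), without Ep300 knockout replicate 2 (0.0661), or with only the compared groups in the fit (0.0737).

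In double knockout, 21 of the 42 genes changed in a mixed pattern: 13 fell and 8 rose. That is 31% called lower and 19% called higher, against 24.6% and 24.7% of all tested genes (49.4% in either direction). The median log2 change was -0.03, against -0.02 over all tested genes, and the median absolute change was 0.18, against 0.37. The absolute changes again compare sets of unlike control level (20.2 and 2.54 CPM per kilobase). The largest fall was 0.75 (Nhp2) and the largest rise 0.42 (Rrp12) on the log2 scale. The 3 double knockout libraries lay below the 3 control libraries in 17 of the 42 genes and above them in 10, against 29.6% and 30.1% of all tested genes. With offsets for exon length and GC content the split was 20 lower and 6 higher. Without double knockout replicate 2 only 3 genes were called higher (Rrp12, Bysl and Noc3l).

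**Figure D3:**
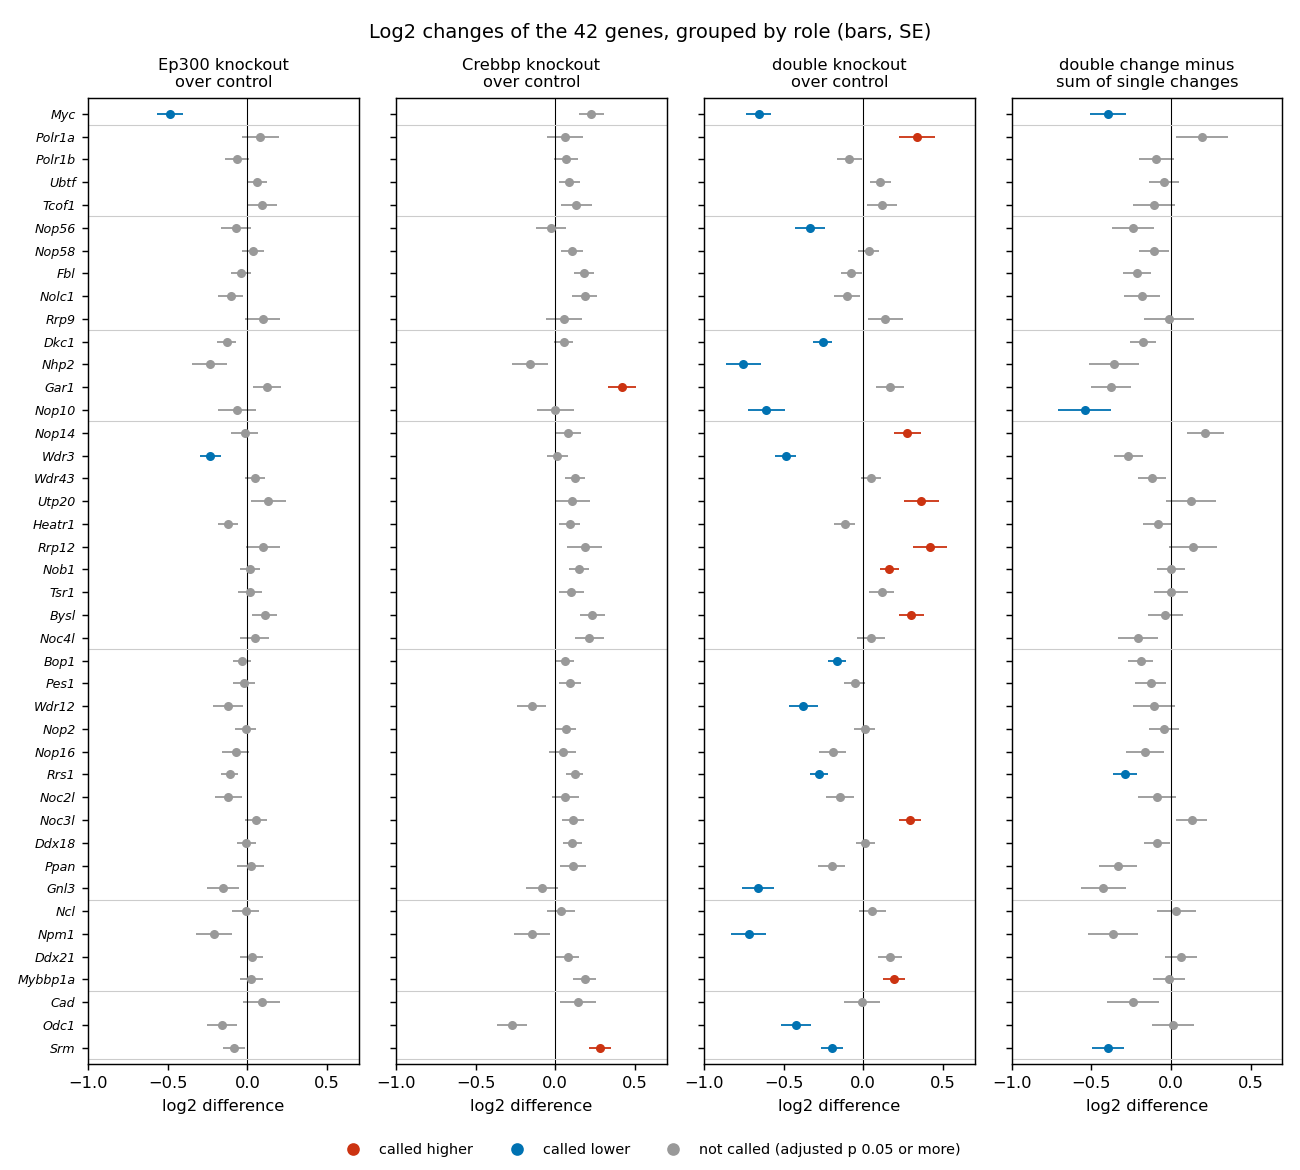
Log2 changes of the 42 genes, in rows grouped by role, for Ep300 knockout, Crebbp knockout and double knockout over control, and for the double knockout change minus the sum of both single changes. Bars are SE, blue points were called lower, red points higher and grey points not called; double knockout holds 13 blue and 8 red points, Ep300 knockout 2 blue and Crebbp knockout 2 red.

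Of the box H/ACA snoRNP genes, 3 of 4 fell in double knockout and none rose, beside 24.6% and 24.7% of all tested genes. Nhp2 had 76.4, 72.7 and 77.7 CPM in the double knockout libraries, against 111, 158 and 114 in the control libraries. Nop10 had 139, 118 and 131 CPM in the double knockout libraries, against 176, 217 and 199 in the control libraries. In both genes every double knockout library was below every control library, and control replicate 2 was the highest. Nhp2 fell by 0.75 ± 0.11 (adjusted p = 5.29e-05) and Nop10 by 0.61 ± 0.12 (adjusted p = 0.000541) on the log2 scale. Without control replicate 2 Nhp2 still fell, by 0.57 (adjusted p = 3.1e-05). Dkc1, which encodes the pseudouridine synthase dyskerin of these particles, fell by 0.25 ± 0.06 (adjusted p = 0.00214). Gar1 was not called, with a log2 change of 0.17 ± 0.09 (adjusted p = 0.135).

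Of the box C/D snoRNP genes, whose particles guide ribose methylation, 1 of 5 fell, beside 24.6% of all tested genes. That was Nop56, a core scaffold protein, with 416, 414 and 419 CPM in the double knockout libraries, against 479.8, 609.7 and 483 in the control libraries. Double knockout libraries lay within a narrow band below all controls, and control replicate 2 was again far above the other 2. Nop56 fell by 0.33 ± 0.09 on the log2 scale (adjusted p = 0.00826), and by 0.21 without control replicate 2 (adjusted p = 0.0425). Its partner Nop58 had a log2 change of 0.03, the methyltransferase gene Fbl -0.07, the snoRNP chaperone gene Nolc1 -0.10 and the U3 snoRNP gene Rrp9 0.14, and none of these was called. With the offsets Fbl fell by 0.13 (adjusted p = 0.0485), and the log2 changes of Nop58 and Rrp9 were -0.02 and -0.11.

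Of the small subunit factors, 5 of 10 rose and 1 fell, beside 24.7% and 24.6% of all tested genes. Without double knockout replicate 2 Rrp12 and Bysl were the only 2 of the 5 still called, and with offsets for length and GC content 4 rose and 2 fell. Rrp12 had 28.1, 28.7 and 27.9 CPM in the double knockout libraries, against 22.2, 18.7 and 22.4 in the control libraries, and rose by 0.42 ± 0.11 on the log2 scale (adjusted p = 0.00417). Utp20, a large processome scaffold, rose by 0.37 ± 0.11 (adjusted p = 0.0123), Bysl, which encodes the 40S factor bystin, by 0.30 ± 0.08 (adjusted p = 0.00468), Nop14, a processome component, by 0.28 ± 0.08 (adjusted p = 0.0112) and Nob1, the nuclease that makes the mature 18S end, by 0.17 ± 0.06 (adjusted p = 0.0356). Their rises were modest and several rested on single libraries. Utp20 was not called without double knockout replicate 2 (adjusted p = 0.051) or control replicate 2 (0.0551), nor Nop14 without double knockout replicate 2 (0.0503). Rrp12 rose by 0.22 with offsets for length and GC content. Nob1 was not called without any double knockout replicate (0.0699, 0.104 and 0.0798), without control replicate 1 (0.154) or 3 (0.0913), without Ep300 knockout replicate 2 (0.0513), without Crebbp knockout replicate 1 (0.0537), with the offsets (0.0881) and with no filter on low counts (0.131).

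Wdr3 was the exception among the small subunit factors. It had 51.1, 52.9 and 53.3 CPM in the double knockout libraries, against 70.5, 80.1 and 70.0 in the control libraries, and every double knockout library was lower than every control library. Its fall of 0.49 ± 0.06 on the log2 scale (adjusted p = 1.93e-05) held in every alternative. Wdr43, Heatr1, Tsr1 and Noc4l, which also serve 40S maturation, were not called, with log2 changes from -0.12 (Heatr1) to 0.12 (Tsr1); with the offsets Heatr1 fell by 0.16 (adjusted p = 0.00993).

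Among 60S assembly factors, 4 of 11 fell and 1 rose, beside 24.6% and 24.7% of all tested genes. Gnl3, which encodes the nucleolar GTP-binding protein nucleostemin, had 115, 110.2 and 122 CPM in the double knockout libraries, against 168, 206 and 175 in the control libraries. The groups did not overlap, and Gnl3 fell by 0.66 ± 0.10 on the log2 scale (adjusted p = 7.59e-05). Rrs1, a 5S particle assembly factor, had 44.3, 45.1 and 44.4 CPM in the double knockout libraries, against 52.7, 56.3 and 53.3 in the control libraries. These values were tightly grouped, and Rrs1 fell by 0.28 ± 0.05 (adjusted p = 0.000584). Of the PeBoW complex, in which Pes1, Bop1 and Wdr12 act together on the 60S precursor, Wdr12 fell by 0.38 ± 0.09 (adjusted p = 0.00328) and Bop1 by 0.17 ± 0.06 (adjusted p = 0.0252), while Pes1 had a log2 change of -0.05 and was not called. Bop1 was not called without double knockout replicate 2 (0.0907) or 3 (0.087), without control replicate 1 (0.0617) or 2 (0.0587), or with no filter on low counts (0.181), and it fell by 0.38 with the offsets. Noc3l, a partner of pre-60S particles, rose by 0.29 ± 0.07 (adjusted p = 0.00218). The largest change not called in the group was a log2 change of -0.20 for Ppan (adjusted p = 0.0641). With the offsets Ppan fell by 0.38 (adjusted p = 0.000985) and Noc2l by 0.28 (adjusted p = 0.00404).

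Of the RNA polymerase I group, 1 of 4 rose and 0 fell, beside 24.7% and 24.6% of all tested genes. Polr1a, the gene of the largest subunit of the polymerase, rose by 0.34 ± 0.11 on the log2 scale (adjusted p = 0.023). It had 123, 131 and 116 CPM in the double knockout libraries, against 104, 86.7 and 102 in the control libraries. The groups did not overlap, but the call was lost without double knockout replicate 2 (adjusted p = 0.0858) or control replicate 2 (0.0949). Polr1b, the gene of the second largest subunit, had a log2 change of -0.09, the ribosomal DNA factor gene Ubtf 0.11 and the treacle gene Tcof1 0.12, and none was called. With the offsets Polr1b fell by 0.16 (adjusted p = 0.0391), Tcof1 fell by 0.17 (adjusted p = 0.0288) and Ubtf had a log2 change of -0.07.

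Of the nucleolar proteins with several roles, 1 of 4 fell and 1 rose, beside 24.6% and 24.7% of all tested genes. Npm1 had 1524, 1429 and 1574 CPM in the double knockout libraries, against 2321, 2756 and 2380.45 in the control libraries. Every double knockout library was lower than every control library, and Npm1 fell by 0.72 ± 0.11 on the log2 scale (adjusted p = 8.42e-05). Npm1 is known to have processed copies in the mouse genome, so its count is uncertain where reads matched a copy. Mybbp1a, which encodes a nucleolar MYB-binding protein, rose by 0.19 ± 0.07 (adjusted p = 0.0336), with 256, 261 and 251 CPM in the double knockout libraries, against 231, 221 and 219.5 in the control libraries. That rise came to 0.04 with offsets for length and GC content (adjusted p = 0.56) and was not called without Crebbp knockout replicate 1 (0.0503), double knockout replicates 1, 2 or 3 (0.0819, 0.0999 and 0.0583), control replicates 2 or 3 (0.0713 and 0.104), or with no filter on low counts (0.0614). The nucleolin gene Ncl had a log2 change of 0.06 and the RNA helicase gene Ddx21 0.17 (adjusted p = 0.0664), and neither was called.

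Both polyamine genes fell in double knockout, where 24.6% of all tested genes were called lower. Odc1, the gene of the rate-limiting ornithine decarboxylase, had 259, 250.05 and 271 CPM in the double knockout libraries, against 316, 400.2 and 329 in the control libraries, and fell by 0.42 ± 0.09 on the log2 scale (adjusted p = 0.00161). Srm had 37.3, 40.6 and 37.2 CPM in the double knockout libraries, against 43.6, 43.7 and 44.7 in the control libraries, and fell by 0.20 ± 0.07 (adjusted p = 0.0315). Groups did not overlap for either gene. Srm was not called without double knockout replicate 1 (0.111) or 3 (0.11), without control replicate 1 (0.0578) or 3 (0.0801), or with no filter on low counts (0.0952), and it fell by 0.35 with the offsets. Cad had a log2 change of -0.01 and was not called, but with offsets for length and GC content it fell by 0.31 ± 0.07 (adjusted p = 0.00114).

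Set against each other, the Ep300 and Crebbp knockouts differed in 8 of the 42 genes, all lower in Ep300 knockout. That is 19% of the set, against 7.37% of all tested genes called lower, while 0 were called higher, against 6.26% (13.6% in either direction). At an unadjusted p under 0.05, 11 were lower and 0 higher, and DESeq2 and limma-voom also called 0 higher. Log2 differences were below 0 for 37 of the 42 genes (88.1%, against 49.1% of all tested genes), with a median of -0.09. After Myc, the clearest was Srm, which fell by 0.36 ± 0.07 (adjusted p = 0.00248), with 37.8, 41.5 and 45.2 CPM in the Ep300 knockout libraries, against 54.7, 54.7 and 50.9 in the Crebbp knockout libraries. Rrs1 had 50.3, 50.3 and 49.7 CPM in the Ep300 knockout libraries, against 59.7, 58.8 and 58.0 in the Crebbp knockout libraries, and fell by 0.23 ± 0.05 (adjusted p = 0.00855). In all 8 genes the libraries of the groups did not overlap, as in 14 of the 42 genes, against 14.2% of all tested genes, and in 0 the Ep300 knockout libraries lay above, against 13%.

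The other 5 were Wdr3 (log2 difference -0.25), Nolc1 (-0.29), Fbl (-0.22), Gar1 (-0.30) and Heatr1 (-0.21), with adjusted p from 0.0192 to 0.0397. These rested on the spread of single libraries: 3 genes of the 42 were called lower without Ep300 knockout replicate 2, Crebbp knockout replicate 1 or Crebbp knockout replicate 2, and 4 without Ep300 knockout replicate 1. With only the compared groups in the fit, 2 were called lower.

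Against Ep300 knockout, double knockout had 9 of the 42 genes lower and 3 higher, beside 16.6% and 18% of all tested genes (34.6% in either direction). In 12 genes the double knockout libraries lay below all Ep300 knockout libraries and in 6 above them, beside 23% and 24.4% of all tested genes. Nop10 fell by 0.54 ± 0.12, Nhp2 by 0.52 ± 0.11, Npm1 by 0.51 ± 0.11 and Gnl3 by 0.51 ± 0.10 on the log2 scale, with adjusted p from 0.00165 to 0.00299. Nop56, Odc1, Wdr12, Wdr3 and Rrs1 fell by 0.17 to 0.26. Nop14, Rrp12 and Noc3l rose by 0.24 to 0.32. These counts leaned on single libraries. Without Ep300 knockout replicate 2 they were 5 lower and 1 higher, without double knockout replicate 1 or 3 there were 5 lower, without double knockout replicate 2 there were 5 lower and 0 higher, without Ep300 knockout replicate 3 there were 7 higher, and without Crebbp knockout replicate 3 there were 5 higher.

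Against Crebbp knockout, double knockout had 17 of the 42 genes lower and 1 higher, beside 21.8% and 21.4% of all tested genes (43.2% in either direction). In 21 genes the double knockout libraries lay below all Crebbp knockout libraries and in 5 above them, beside 28% and 28.4%. All 4 box H/ACA genes fell, from 0.61 for Nop10 to 0.25 for Gar1, and so did 3 of 5 box C/D genes, Nop56 by 0.31, Nolc1 by 0.29 and Fbl by 0.26 on the log2 scale. The fall of Gar1 was not called without Crebbp knockout replicate 1 (adjusted p = 0.0898) or 2 (0.107) or double knockout replicate 1 (0.135) or 3 (0.068), nor that of Nop56 without Crebbp knockout replicate 3 (0.0577) or double knockout replicate 2 (0.0506). Srm fell by 0.48 ± 0.07 (adjusted p = 7.08e-05), Wdr3 by 0.50 ± 0.06 (adjusted p = 1.91e-05) and Rrs1 by 0.40 ± 0.05 (adjusted p = 2.86e-05). Noc3l rose by 0.18 ± 0.07 (adjusted p = 0.0399), and leaving out single libraries gave 0 to 3 genes called higher. The comparisons of double knockout with control and with each single knockout share the double knockout libraries, so their calls are not separate evidence. Likewise, those of Crebbp knockout with control, Ep300 knockout and double knockout share the Crebbp knockout libraries. Their one-sided counts are therefore not separate evidence either.

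A last comparison used the libraries of all 4 groups, so its results are not separate from those above. It asked whether the double knockout change differed from the sum of both single changes on the log2 scale. It did so downwards for 4 of the 42 genes, or 9.52%, against 4.96% of all tested genes, and upwards for 0, against 5.33% (10.3% in either direction). At an unadjusted p under 0.05, 13 were lower and 0 higher, and DESeq2 and limma-voom also called 0 higher. The 4 were Myc (-0.40 ± 0.11, adjusted p = 0.0364), Srm (-0.39 ± 0.10, adjusted p = 0.0215), Rrs1 (-0.29 ± 0.08, adjusted p = 0.0262) and Nop10 (-0.54 ± 0.17, adjusted p = 0.0497). In the first 3 the single knockouts had log2 changes of opposite sign: Srm stood at -0.08 in Ep300 knockout and 0.28 in Crebbp knockout, and Rrs1 at -0.11 in Ep300 knockout and 0.12 in Crebbp knockout. For Nop10 the single knockouts stood near control, with 197, 199 and 169 CPM in the Ep300 knockout libraries and 179, 174 and 238 in the Crebbp knockout libraries. The double knockout libraries of Nop10 lay below all 9 others.

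All of these departures were close to the threshold. Leaving out any 1 of Ep300 knockout replicate 2, double knockout replicate 1, double knockout replicate 3 or control replicate 1 left 0 genes called lower, leaving out double knockout replicate 2 left 1, leaving out Crebbp knockout replicate 1 or 2 or control replicate 3 left 2, and leaving out control replicate 2 gave 9. Adjusted p-values in these omissions stayed between 0.0546 and 0.0643 for Srm where its call was lost, and reached 0.0845 for Myc, 0.0848 for Rrs1 and 0.134 for Nop10. The largest departures not called were -0.43 for Gnl3 (adjusted p = 0.0732) and 0.21 for Nop14 (adjusted p = 0.27).

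Other genes of the same pathways were read from lists chosen with earlier results of these data known. Of 127 tested other ribosome biogenesis factors, 28 rose and 29 fell in double knockout, or 22% and 22.8%, beside 24.7% and 24.6% of all tested genes, with a median log2 change of -0.01. The helicase gene Ddx24 rose by 0.96 ± 0.07 (adjusted p = 1.82e-08), the RNA acetyltransferase gene Nat10 rose by 0.66 ± 0.06 (adjusted p = 4.08e-07), and Taf1d, a subunit gene of the RNA polymerase I selectivity factor, fell by 1.48 ± 0.16 (adjusted p = 1.78e-06). In Ep300 knockout the same list had 2 higher (1.57%) and 3 lower (2.36%), beside 7.27% and 8.83% of all tested genes. Without Ep300 knockout replicate 2 or any control replicate 1 was lower. In Crebbp knockout it had 0 and 0, with 16 at an unadjusted p under 0.05, and DESeq2 called 5 higher and 0 lower and limma-voom 0 and 0. Leaving out Ep300 knockout replicate 1 or 3 gave 1 and 3 called higher in Crebbp knockout, and leaving out Crebbp knockout replicate 3 gave 2 higher and 1 lower.

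Other Myc target genes mostly fell. Of 36, 24 fell (66.7%) and 2 rose (5.56%) in double knockout, beside 24.6% and 24.7% of all tested genes, with a median log2 change of -0.31, against -0.02 over all tested genes. Without control replicate 3, 1 rose. They included Tfrc, the transferrin receptor gene, down by 1.02 ± 0.08 (adjusted p = 7.84e-08), Shmt1, a folate enzyme gene, down by 0.53 ± 0.06 (adjusted p = 4.98e-06), and Nme1, a nucleoside diphosphate kinase gene, down by 0.70 ± 0.10 (adjusted p = 3.68e-05). In Ep300 knockout 5 fell (13.9%) and 1 rose (2.78%), beside 8.83% and 7.27% of all tested genes, among them the amino acid transporter genes Slc3a2 (-0.38) and Slc1a5 (-0.40) and Shmt2 (-0.33), the mitochondrial relative of Shmt1. Without Ep300 knockout replicate 2, 3 fell, and without Ep300 knockout replicate 3 or control replicate 1, 0 rose. In Crebbp knockout edgeR, DESeq2 and limma-voom called 0 in either direction, with 3 at an unadjusted p under 0.05.

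Of 14 other polyamine and pyrimidine genes, 8 fell (57.1%) and 1 rose (7.14%) in double knockout, beside 24.6% and 24.7% of all tested genes, and in it Odc1 and Srm also fell. The spermine synthase gene Sms fell by 1.06 ± 0.12 (adjusted p = 3.79e-06), Amd1, the gene of the decarboxylase that supplies the aminopropyl donor, by 0.72 ± 0.07 (adjusted p = 1.05e-06), and its near-identical copy Amd2 by 0.67 ± 0.06 (adjusted p = 3.41e-07). Reads of Amd1 and Amd2 may have been split between them, so both are uncertain. The count lower was 5 without double knockout replicate 1 or 2 or control replicate 3, and 4 without control replicate 2. In Ep300 knockout 4 fell (28.6%) and 0 rose, beside 8.83% and 7.27% (1 rose without control replicate 2), including Smox by 0.49, Amd1 by 0.39 and Amd2 by 0.34. In Crebbp knockout 0 were called by edgeR and limma-voom and 1 lower by DESeq2, with 1 at an unadjusted p under 0.05, and 1 was lower without Ep300 knockout replicate 3 or Crebbp knockout replicate 3.

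Of 18 tested MYC partners and regulators, 9 rose (50%) and 3 fell (16.7%) in double knockout, beside 24.7% and 24.6% of all tested genes. Mxd1, the gene of a protein that competes with MYC for MAX, averaged 22.7 ± 0.447 CPM in double knockout and 9.95 ± 0.600 in control (SD, n = 3 each), a log2 change of 1.19 ± 0.10 (adjusted p = 8.34e-08). Its relative Mxd3 fell by 1.11 ± 0.13 (adjusted p = 3.86e-06), and Mxd4 rose by 0.34 ± 0.07 (adjusted p = 0.000985). The noncoding gene Pvt1, a neighbour of Myc, fell by 0.56 ± 0.10 in double knockout (adjusted p = 0.000309) and by 0.32 ± 0.10 in Ep300 knockout (adjusted p = 0.0438). Skp2, a ubiquitin ligase gene, fell by 0.40 ± 0.06 (adjusted p = 7.3e-05), and the coactivator gene Trrap rose by 0.67 ± 0.14 (adjusted p = 0.000925). Mga, Bin1, Huwe1, Mlxip and Max rose by 0.15 to 0.39, and Mycl was called higher at 0.243 ± 0.0866 CPM in double knockout and 0.0691 ± 0.0461 in control. With offsets for length and GC content 6 of these genes were lower. In Ep300 knockout Mxi1 fell by 0.37 (adjusted p = 0.000815) besides Pvt1, and 0 were called higher (1 by DESeq2, 1 at an unadjusted p under 0.05, and 4 with the offsets). Of these 2 calls, 1 was left without Ep300 knockout replicate 2 or 3, Crebbp knockout replicate 1, any double knockout replicate, or control replicate 2 or 3. In Crebbp knockout edgeR and limma-voom called 0 in either direction and DESeq2 1 higher, with 3 at an unadjusted p under 0.05.

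Exon lengths of the genes called lower and higher in double knockout overlapped widely, from 1109 to 11955 bases and from 2730 to 11871 bases. Median exon length was 2957 bases in the 13 genes called lower, 4158.5 in the 8 called higher and 4004 in the 21 not called. Across the 42 genes, which share libraries and are not replicates, Spearman's rho of exon length with the log2 change was 0.29, against 0.17 across 18430 tested genes. With offsets per library for length and GC content the rho of the 42 genes in double knockout was 0.17. The offsets also took it from 0.27 to 0.04 in double against Ep300 knockout. It went from 0.40 to 0.33 in double against Crebbp knockout and from 0.39 to 0.19 for additivity. In Ep300 knockout against control it went from 0.26 to 0.46, and in Crebbp knockout from -0.08 to -0.29. In Ep300 against Crebbp knockout it went from 0.41 to 0.63. In double knockout against control the offsets added 7 genes to the lower calls (Cad, Tcof1, Polr1b, Fbl, Heatr1, Noc2l and Ppan) and took Nob1 and Mybbp1a from the higher calls. Myc, Nhp2, Npm1, Gnl3 and Wdr3 were called lower with and without them.

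**Figure D4:**
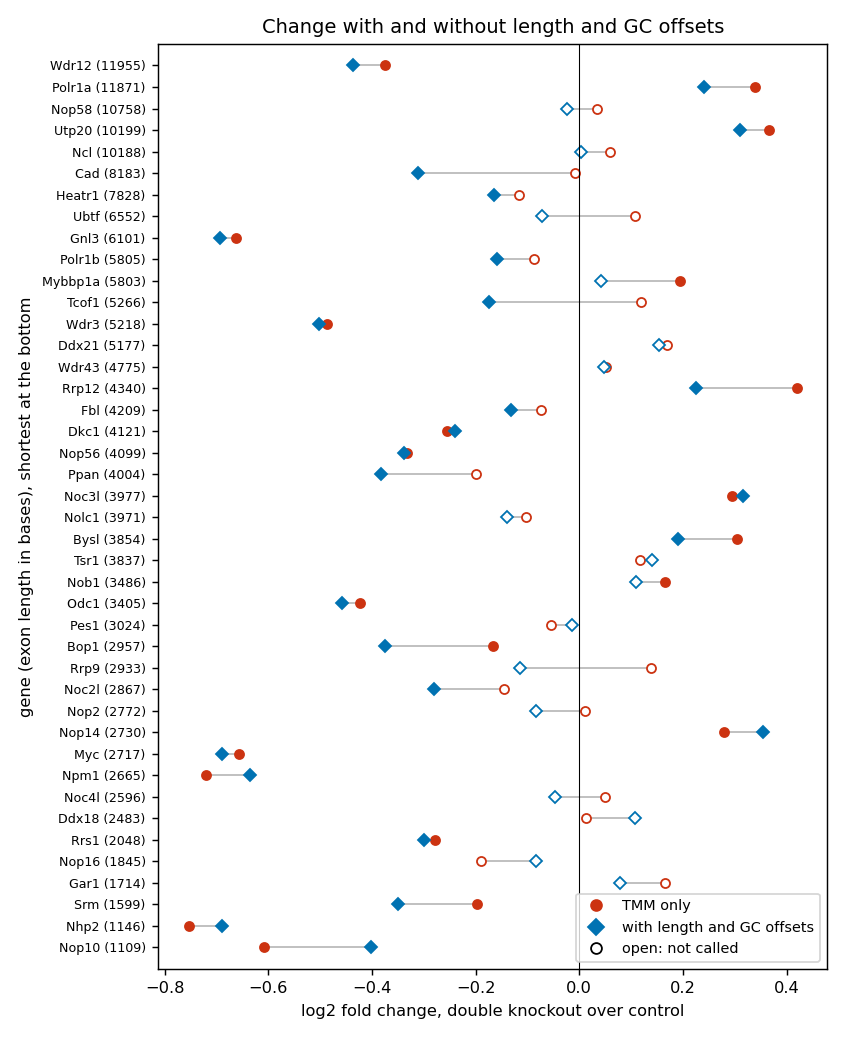
Log2 change of each of the 42 genes in double knockout over control with TMM scaling only (red circles) and with offsets for exon length and GC content added (blue diamonds), genes ordered by exon length in bases with the shortest at the bottom. Filled symbols were called and open symbols were not; Cad stands at -0.31 with the offsets and -0.01 without, Mybbp1a at 0.04 with them and 0.19 without, and the symbols of Gnl3 and Wdr3 nearly coincide.

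Some of the 42 genes carry snoRNA genes in their introns, a known feature of ribosome biogenesis genes. In the annotation 9 of them hold 24 snoRNA genes on the same strand: Nop56 5, Nop58 4, Wdr43, Gnl3 and Ncl 3 each, Tsr1 and Ppan 2 each, and Dkc1 and Odc1 1 each. Of these 9, 4 fell in double knockout (Nop56, Gnl3, Dkc1 and Odc1), 0 rose and 5 were not called. Of all tested genes 24.6% fell and 24.7% rose, and of the 42 genes 31% and 19%. Exons of 18 of the 42 genes overlap those of another gene, nearly always on the opposite strand, as with Bysl and Ccnd3 over 361 bases or Tsr1 and Srr over 1240 bases. The kit keeps strand, but the strand setting of the counting is not given in the sources used here, so reads of such pairs cannot be told apart and these genes are uncertain to that extent.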

How the data were processed

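RNA was measured by stranded poly(A) RNA sequencing in 12 libraries of cultured B16F10 cells. The deposited table holds raw read counts per Ensembl gene, with no normalization; the authors made it with bcl2fastq, HISAT2 and HTSeq on mm10, per the submitters' processing notes. No tool versions, strand option or annotation release are named in those notes. A mouse annotation of the same build (GRCm38) named 54723 of 54752 genes and gave exon lengths.

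Genes passing filterByExpr (18434) were tested with edgeR 4.0.16 (R 4.3.3; quasi-likelihood F test, robust, TMM scaling, all 12 libraries, group as the only term), adjusted by Benjamini and Hochberg over all tested genes; calls have an adjusted p under 0.05. SE are from the F statistic; CPM are scaled by TMM. The biological coefficient of variation was 9.46%. Scripts were tested on simulated data.

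Alternatives were DESeq2 1.42.0, limma-voom (limma 3.58.1), RLE size factors, no filter, a minimum of 1 CPM in 3 libraries, fitting only the groups compared, a block for replicate number, offsets for exon length and GC content (splines of 5 degrees of freedom), block and offsets together, and leaving out each library in turn. Per-library values are given for Myc, for up to 6 called genes of smallest adjusted p in each knockout against control and for genes called in the additivity test, with some others added after their values were seen. Other lists name up to 3 called genes each, and the MYC partners all called genes. The 42 genes and all lists were chosen with earlier results of these data known.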

Additional observations from a re-analysis of the deposited data

Results flagged for a closer look

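In 4 genes the change in double knockout differed from the sum of the changes in Ep300 knockout and Crebbp knockout on the log2 scale, by a test of the interaction term in the edgeR fit. The interaction was -0.40 for Myc, -0.54 for Nop10, -0.29 for Rrs1 and -0.39 for Srm, so each transcript was lower in double knockout than that sum. Each of the 4 calls was lost when certain single libraries were left out. The 4 results come from 1 fit over the same 12 libraries and are not separate evidence.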

How the results depend on the processing

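Of 69 gene results (Myc and the called genes of each comparison) none changed direction, 36 kept the same call in every alternative and 33 lost or gained it in some; outside them, the double knockout changes of Tcof1, Ubtf, Rrp9 and Nop58 turned from positive to negative with the offsets. With no filter on low counts, Ep300 knockout had 1 of the 42 genes lower than control (2 as reported) and Crebbp knockout 1 lower (0), while double knockout had 5 higher than Ep300 knockout (3) and 3 higher than Crebbp knockout (1), and Ep300 knockout had 4 lower than Crebbp knockout (8). With only the groups compared, Ep300 knockout had 1 lower and Crebbp knockout 0 higher than control (2), double knockout 3 higher than Crebbp knockout, and Ep300 knockout 2 lower than Crebbp knockout. With DESeq2, double knockout had 5 higher than Ep300 knockout and 7 genes were below additivity (4). With 1 CPM in 3 libraries, double knockout had 2 higher than Crebbp knockout. With offsets for length and GC content, double knockout had 20 lower than control (13), 15 lower than Ep300 knockout (9) and 2 higher than Crebbp knockout, and 11 were below additivity. The cause of these shifts was not tested.

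The replicate numbers did not pair the libraries: deviations of same-numbered libraries correlated from -0.17 to 0.107 over 18 pairs of groups. With the replicate block, Crebbp knockout had 0 higher than control (Gar1 adjusted p = 0.0554, Srm 0.0938), double knockout 6 higher and 11 lower than control (not calling Nob1 at 0.0571, Bop1 at 0.0506, Mybbp1a at 0.0649 and Srm at 0.0512), 5 lower than Ep300 knockout and 0 higher than Crebbp knockout, Ep300 knockout 5 lower than Crebbp knockout, and 1 gene was below additivity. With the block and offsets together, Crebbp knockout had 1 higher than control, double knockout 5 higher (8), and 8 genes were below additivity.

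Leaving out each library in turn gave 0 to 0 higher and 1 to 2 lower in Ep300 knockout against control, 0 to 2 higher and 0 to 0 lower in Crebbp knockout, and 3 to 9 higher and 11 to 14 lower in double knockout. It gave 0 to 7 higher and 5 to 10 lower in double against Ep300 knockout, 0 to 3 higher and 14 to 19 lower in double against Crebbp knockout, 0 to 0 higher and 3 to 10 lower in Ep300 against Crebbp knockout, and 0 to 0 above and 0 to 9 below additivity. Alternatives for the other gene lists were added after seeing the data. With the offsets, other ribosome biogenesis factors had 5 higher and 5 lower in Ep300 knockout and 6 higher in Crebbp knockout. SE on the log2 scale for the 42 genes were 0.05 to 0.12 between groups and 0.08 to 0.17 for additivity, which limits the changes that 3 libraries a group can show.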
